A study of Mus musculus with 12 samples.

Results

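Libraries described as thymic masses, from mice that carried the MYC mutant S62A and had splenomegaly, were compared with control thymic tissue over all measured genes. The libraries were chosen by their titles, which name splenomegaly for 3 libraries and control for 3, so 6 of the 12 libraries of the series form the comparison. All 24478 gene symbols of the tables were described, each by the transcript row that held the most reads over the 12 libraries. Of these, 15606 passed the filter on low counts and were tested. The series sequenced poly(A) RNA of mouse thymic tissue in 4 groups of 3 libraries. The other groups are thymic lymphomas with the mutants T58A and S62A, of which the S62A lymphomas serve here as a second reference.

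Control tissue was labelled as T lymphocytes that express endogenous MYC only. The masses were labelled as T and B lymphocytes that express ectopic MYCS62A beside endogenous MYC, and their titles name splenomegaly although the tissue of each is given as thymic. Genes of thymic epithelium were low in these libraries and genes typical of splenic red pulp macrophages, plasma cells and follicles were high (values below). Most genes of high endothelial venules, the entry vessels of lymph nodes, were high too. No erythroid gene passed the test, and granulocyte genes mostly fell or did not pass. Thymic epithelial genes were also low in the S62A lymphomas. The red pulp list summed to a mean of 371.4 CPM in controls and 1441 CPM in masses. It stood at 691.1 CPM in S62A and 774.9 CPM in T58A lymphomas, so the thymic lymphomas shared part of this rise. Of its 12 genes, 6 were higher in the masses than in S62A lymphomas. Altered thymus and spleen, as the tissue sampled, cannot be told apart here. The name mass follows the design text, and each value below compares these libraries with control thymus whichever tissue they hold. S62A lymphomas were labelled as T lymphocytes with ectopic MYCS62A only. Disease in the affected groups arose spontaneously, per the labels' protocols. The strain, age, sex, the promoter that drives the ectopic gene and the number of animals behind each group do not appear in the sources used here. P-values therefore reflect only how far the libraries of the series spread, lymphomas included, and some of that spread may be technical. The letter that opens the code in a title was I for all masses and S62A lymphomas, G for 2 controls and H for the third, so that this letter and the group cannot be told apart.

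Reads in genes came to 18545674, 17339406 and 22437969 in controls 1 to 3 and to 19905444, 9577373 and 14890182 in masses 1 to 3. The biological coefficient of variation was 17.11% within controls and 27.98% within masses. It was larger within S62A lymphomas (44.97%) and T58A lymphomas (41.06%). The fit took its spread from all 4 groups, so p-values and standard errors of mass against control carry that of the lymphomas too. Sex-linked genes differed among the libraries. Xist, the RNA that silences an X chromosome, stood at 4.9, 2.92 and 2.6 CPM in the controls and at 779.9, 37.9 and 1013 CPM in the masses, where CPM is a read count scaled to the size of the library. Ddx3y, a gene of the Y chromosome, stood at 143, 151 and 156 CPM in the controls and at 0.106, 122 and 10.2 CPM in the masses. By these genes the controls were alike, masses 1 and 3 were high in Xist, mass 2 was high in Ddx3y, and masses 2 and 3 held reads of both. The part of this mix in the results was not tested, and Xist itself did not overlap between the groups. Control 3 stood apart by fat genes and by others. Ucp1, the uncoupling protein of brown fat, stood at 1.75, 0.22 and 245 CPM in the controls, and 61 genes of at least 20 CPM were more than 4-fold higher in control 3 than in both other controls. The highest of them included Rn45s, Lars2, Mir6236, H2-T3, Zfp949 and Zfp868 beside fat genes such as Fabp4 and Adipoq.

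The thymus is built by cortical and medullary epithelium that attracts, instructs and selects developing T cells, most of which pass through a stage with both CD4 and CD8 while they rearrange receptor genes with RAG recombinase. Secondary lymphoid tissue is arranged around B cell follicles, germinal centres in which B cells mutate and switch their antibody genes, and entry vessels with a high endothelium. B cells that become plasma cells enlarge the endoplasmic reticulum through the factors BLIMP1 and XBP1 and secrete antibody. Segments of antibody and T cell receptor genes, like mitochondrial genes, were not used here, so antibody and receptor transcripts are seen only through other genes.

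The masses and controls differed over a large share of the transcriptome. In the fit of all 12 libraries with edgeR's quasi-likelihood test and Benjamini-Hochberg adjustment, 7681 of 15606 genes passed an adjusted p of 0.05 (49.2%). Of these, 3578 were higher (22.9% of genes tested) and 4103 lower (26.3%) in the masses, and 8728 genes had an unadjusted p under 0.05. Called genes with a difference of at least 4-fold numbered 1429 higher and 1264 lower, and 317 and 576 differed by at least 16-fold. The median log2 fold change over all genes tested was -0.08. The groups' libraries did not overlap for 11009 genes (70.5%; 32% higher and 38.5% lower in the masses), and 7635 of the 7681 called genes were among them. Reads moved with the calls. Genes called higher held 16.89%, 16.86% and 16.13% of reads in the controls and 46.82%, 44.57% and 45.94% in the masses. Genes called lower held 43.66%, 43.88% and 42.89% in the controls and 17.35%, 18.84% and 18.51% in the masses. Each group's libraries were close to each other in these shares, and the groups lay far apart.

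Single genes changed by larger factors at both ends. Among genes of at least 20 CPM in either group and no overlap, the 15 largest rises were those of Slpi, Fcgr4, Sirpb1a, Cd300e, Glycam1, Nuggc, Cxcl13, Jchain, Shisa3, Fcrl5, Mzb1, Klra2, Derl3, Xist and Bhlha15, from 10.71 in Slpi to 7.34 in Bhlha15. The call of Xist was lost without each library but mass 2. The 15 largest falls were those of Slc5a9, Tctex1d1, Tdrd5, Slc6a19, Rag1, Rag2, Pax1, Dntt, Krt5, Cldn4, Ptcra, Psmb11, Arpp21, Tbata and Foxn1. The first group holds genes known from plasma cells (Jchain, Mzb1, Derl3) and myeloid cells (Fcgr4, Sirpb1a, Cd300e), and the second holds genes known from thymocytes (Rag1, Rag2, Dntt, Ptcra) and thymic epithelium (Foxn1, Psmb11, Krt5) beside transporters better known from other organs (Slc6a19, Slc5a9). Sirpb1a, a myeloid receptor, stood at 0, 0.0551 and 0.0866 CPM in the controls and at 98.8, 27.1 and 8.42 CPM in the masses. Tdrd5 stood at 152, 147 and 150.5 CPM in the controls and at 0, 0 and 0.0702 CPM in the masses and Arpp21, an RNA-binding protein of thymocytes, at 428, 436 and 417 CPM in the controls and at 1.11, 0.105 and 0.21 CPM in the masses. No mass came near a control for these 3 genes.

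**Figure D1:**
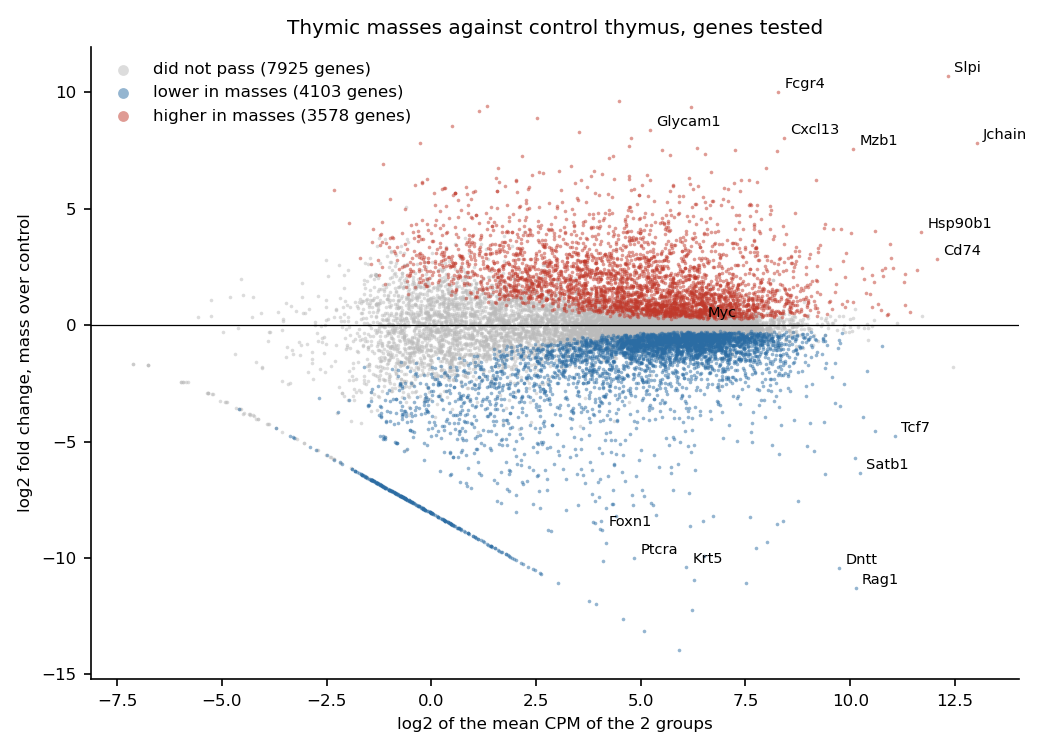
Log2 fold change of the masses over the controls (y axis) against the log2 mean CPM of both groups (x axis) for each gene tested, coloured by the edgeR call; genes at 0 reads in both groups are not drawn. Jchain, Slpi and Mzb1 stand at the upper right, Rag1 and Dntt at the lower right, and the lower diagonal holds genes with no read in any mass.

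The most abundant transcripts of the 2 tissues differed. By mean FPKM, which scales reads to transcript length, the 10 highest genes of the controls included Tmsb4x, Mir6236, Rpl8, Rplp1, Pfn1, Thy1, Tcf7, Actb and Rn45s. Mir6236 and Rn45s, which read ribosomal RNA sequence, were on that list through control 3, in which Rn45s stood at 22430 CPM against 2068 and 1636 in the others. The 10 highest genes of the masses were Slpi, Jchain, B2m, Cd74, Tmsb4x, H2-Aa, H2-K1, Hsp90b1, H2-Ab1 and Mzb1. These encode a secreted protease inhibitor, the joining chain of polymeric antibody, antigen-presenting molecules and chaperones of the secretory pathway, beside the actin-binding Tmsb4x. Tmsb4x was on both lists. Jchain alone held 0.00843%, 0.00671% and 0.00782% of reads in the controls and 1.20%, 1.69% and 1.89% in the masses.

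Genes of double-positive thymocytes fell steeply. All 22 tested markers of double-positive thymocytes fell, with a median log2 fold change of -6.04. Their summed level was 21040, 21200 and 22720 CPM in the controls and 874, 932 and 959.8 CPM in the masses. Fewer cells of a type and less RNA per cell cannot be told apart in such bulk tissue, here and in all results that follow. Rag1, a subunit of the recombinase, stood at 2136, 2148 and 2430 CPM in the controls and at 1.06, 1.16 and 0.491 CPM in the masses (log2 fold change -11.28 ± 0.53 (SE), adjusted p = 3.58e-07). Dntt, the polymerase that adds bases at receptor joints, stood at 1668, 1664 and 1767 CPM in the controls and at 2.02, 0.841 and 0.631 CPM in the masses (log2 fold change -10.42). All controls lay far above all masses for both genes. Ptcra, the chain that pairs with the new beta chain, fell by 10.02 on the log2 scale, and Rag2, the partner of Rag1, fell by 11.09. Ccr9, the receptor for the thymic chemokine CCL25, fell by 7.55. The coreceptors fell unequally: Cd8a went from a mean of 2192 to 41.4 CPM and Cd4 from 1252 to 264 CPM, differences of -5.72 and -2.25 on the log2 scale that were not tested against each other. Genes of the earlier double-negative stage were less uniform: of 16 tested, 9 fell, 3 rose and 4 did not pass (median -1.22). Those that fell included Bcl11b and Notch1, and those that rose were Lyl1 (3.74), Hhex (3.47) and Erg (1.06), which other blood cells or endothelium also express; the call of Erg was lost without control 2.

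Factors that direct T lineage development fell as a group, with exceptions. Of 22 tested factors, 16 fell, 4 rose and 2 did not pass. Tcf7, the effector of Notch and Wnt signals in early T cells, stood at 4172, 4041 and 4178 CPM in the controls and at 149, 122 and 189 CPM in the masses (log2 fold change -4.75 ± 0.20 (SE), adjusted p = 1.55e-07). Satb1, a chromatin organiser of thymocytes, stood at 2330, 2322 and 2437 CPM in the controls and at 27.3, 37 and 22 CPM in the masses. For both genes the masses lay far below the controls without overlap. Bcl11b, the commitment factor, fell by 4.31 on the log2 scale, and Lef1, Gata3, Ets2, Tcf12, Nfatc3 and Egr1 fell too. The 4 that rose were Runx3 (1.79), a factor of CD8 and innate-like cells, Nfatc1 (0.90), Id2 (0.84) and Foxo1 (0.63). Zbtb7b, the CD4 lineage factor, stood at 61.8, 53.9 and 50.3 CPM in the controls and at 110.4, 77.1 and 77.7 CPM in the masses and did not pass (adjusted p = 0.105). Of 16 Notch targets tested, 10 fell and 6 did not pass. Those that fell included Notch3 (-2.47), Notch1 (-1.94) and Hey1 (-1.91), while Hes1 stood at 18.9, 17 and 12 CPM in the controls and at 15.4, 8.1 and 11.5 CPM in the masses and did not pass. Runx3 lost its call without control 2, Id2 without control 3 and Foxo1 without each library but mass 1.

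Recombination genes fell beyond the RAG pair. Of 16 tested genes of V(D)J recombination and class switching, 13 fell, 2 did not pass and 1 rose. Xrcc6, the smaller subunit of the KU end-binding complex, stood at 509.5, 516 and 571 CPM in the controls and at 60.5, 63.4 and 70.2 CPM in the masses (log2 fold change -3.04 ± 0.32 (SE), adjusted p = 3.04e-05), while its partner Xrcc5 did not pass (-0.04). Lig4, the ligase of end joining, fell by 2.10 on the log2 scale.

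Most genes of the thymic epithelium fell, several of them to 0 in some masses. Of 16 tested cortical markers 12 fell and 4 did not pass (median -4.51). Psmb11, a proteasome subunit particular to cortical epithelium, stood at 201, 177 and 172 CPM in the controls and at 0.424, 0 and 0 CPM in the masses (log2 fold change -9.92 ± 0.62 (SE), adjusted p = 1.57e-06). Foxn1, the master factor of thymic epithelium, stood at 40.3, 37.3 and 24.1 CPM in the controls and at 0.159, 0 and 0 CPM in the masses. Prss16, a protease for self-peptides, stood at 1123, 1099 and 1090 CPM in the controls and at 21.6, 32 and 25.3 CPM in the masses. Masses 2 and 3 held no read of Psmb11 or Foxn1, whereas Prss16 kept a low level in all 3. The chemokine gene Ccl25 (-8.42), the keratin genes Krt8 (-8.39) and Krt18 (-8.24) and the factor gene Pax1 (-10.96) also fell, as did Tbata (-9.33). The 4 cortical markers that did not pass, Ly75, Dll4, Cxcl12 and Kitl, are also made by dendritic, endothelial or stromal cells. Cxcl12 stood at 325, 284 and 282 CPM in the controls and at 462, 395 and 481 CPM in the masses (adjusted p = 0.243).

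Of 15 tested medullary markers, 11 fell, 3 did not pass and Hdac9 rose (median -5.47). Aire, which lets medullary cells express tissue antigens, stood at 25.5, 26.3 and 21.8 CPM in the controls and at 2.6, 1.47 and 1.47 CPM in the masses (log2 fold change -3.71 ± 0.94 (SE), adjusted p = 0.00709). Krt5, a keratin of basal epithelium, stood at 141, 142 and 122 CPM in the controls and at 0.106, 0.105 and 0.0702 CPM in the masses. Fezf2, a second regulator of tissue antigens, had reads in mass 3 alone, at 0.0702 CPM. The groups did not overlap for any of these 3 genes. Keratins as a gene family, taken up after their values had been seen, gave 20 of 24 tested members lower and 2 higher (median -6.79). Epcam, an adhesion molecule of many epithelia, stood at 37.5, 41.6 and 31.7 CPM in the controls and at 47.6, 32.8 and 47.2 CPM in the masses and did not pass.

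Loss to 0 reads was one-sided. With at least 10 reads in every control, 270 genes had no read in any mass, and 3 genes showed the reverse (Serpina3m, Gm2663 and Vwde). This count used raw reads, and masses 2 and 3 held fewer reads than every control, which makes 0 easier to reach there. The part of depth in the imbalance was not tested. Counted against a floor of 3 reads over the 3 masses, Slc5a9, a sugar transporter, was at least 1747-fold lower, Tctex1d1 at least 672-fold lower and Slc6a19, an amino acid transporter, at least 384.3-fold lower. The rest of the highest such genes included Insl5, Apoa4, Fat2, Neu2, Rptn, Prokr2, Hrh3 and Calcb, whose known sites of expression are gut, skin, neurons and other tissues outside the immune system.

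**Figure D2:**
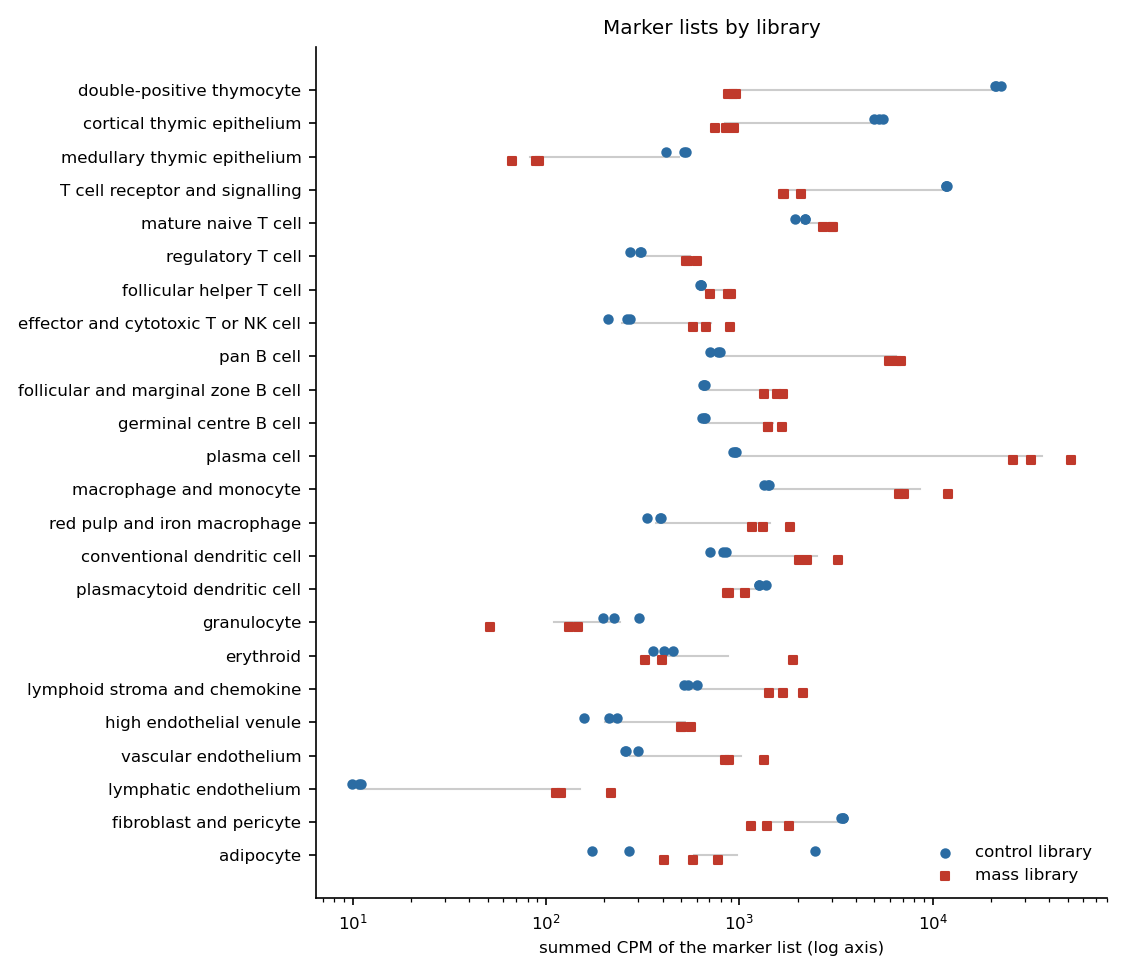
Summed CPM (log axis) of each cell type marker list in the 3 controls (blue circles) and the 3 masses (red squares), with a grey line between the group means. Double-positive thymocyte and epithelial lists lie lower in every mass, plasma cell, B cell, macrophage and endothelial lists lie higher, and control 3 stands alone in the adipocyte list.

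Plasma cell genes showed the largest gain among the cell type lists by summed level. Of 18 tested markers 17 rose and Cd28, also a costimulatory receptor of T cells, fell (median 4.37); its call was lost without each of the 6 libraries. Their sum was 962, 926 and 949.9 CPM in the controls and 26030, 32190 and 52120 CPM in the masses, so that mass 3 held the most and mass 1 the least. Jchain stood at 80.7, 64.1 and 76 CPM in the controls and at 12670, 17040 and 19740 CPM in the masses (log2 fold change 7.81 ± 1.10 (SE), adjusted p = 0.000199). Mzb1, a chaperone of antibody assembly, stood at 13.2, 12 and 9.01 CPM in the controls and at 1685, 1757 and 2981 CPM in the masses (log2 fold change 7.55 ± 1.33 (SE), adjusted p = 0.000849). Slpi stood at 7.43, 7.77 and 3.29 CPM in the controls and at 5541, 5930 and 19360 CPM in the masses (log2 fold change 10.71 ± 1.76 (SE), adjusted p = 0.000546). All masses lay above all controls for the 3 genes, and mass 3 was the highest for each.

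The factors that convert B cells into plasma cells rose together. Prdm1, which encodes BLIMP1, stood at 2.53, 2.04 and 2.94 CPM in the controls and at 85.8, 125 and 141 CPM in the masses (log2 fold change 5.54 ± 0.34 (SE), adjusted p = 1.31e-06). Xbp1, its partner in expanding the endoplasmic reticulum, stood at 157, 158 and 207 CPM in the controls and at 2231, 2604 and 3843 CPM in the masses (log2 fold change 4.06). Irf4, needed for the switch, stood at 14.6, 15.4 and 15.7 CPM in the controls and at 401, 529 and 656 CPM in the masses (log2 fold change 5.12). For each, mass 3 was the highest and mass 1 the lowest, as for the sum of the list, and no mass overlapped a control. Tnfrsf17, the BCMA receptor of long-lived plasma cells, rose by 4.62, Sdc1, the surface proteoglycan CD138, by 3.52 and Ell2, an elongation factor of secretory antibody transcripts, by 5.17. Bhlha15, a factor of secretory cells also called MIST1, rose by 7.34. Ligands of the BCMA receptor family rose as well: Tnfsf13b, which encodes BAFF, from a mean of 1.54 to 52.3 CPM and Tnfsf13, which encodes APRIL, from 2.19 to 23.2 CPM.

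The secretory pathway rose with the plasma cell genes. Of 22 tested genes of the unfolded protein response and secretion, 20 rose, none fell, and Ddit3 and Trib3 did not pass (median 2.78). The summed level was 4203, 4165 and 4225 CPM in the controls and 19010, 24880 and 30450 CPM in the masses. Hspa5, the main chaperone of the endoplasmic reticulum, stood at 333, 332 and 311 CPM in the controls and at 2680, 3865 and 4373 CPM in the masses (log2 fold change 3.48 ± 0.20 (SE), adjusted p = 1.05e-06). Hsp90b1, which folds Toll-like receptors and integrins there, stood at 418, 382 and 389.7 CPM in the controls and at 3950, 6754 and 8060 CPM in the masses (log2 fold change 3.98 ± 0.36 (SE), adjusted p = 1.12e-05). Mass 3 was again the highest and mass 1 the lowest for both. Derl3, of the degradation channel, rose by 7.52, Pdia4 by 4.12, Creld2 by 3.91, Dnajb9 by 3.69 and Sel1l by 2.90. Ern1, the sensor IRE1 that splices Xbp1, rose by 3.11 and Atf6, the sensor cut in the Golgi, by 3.51. The 2 genes without a call belong to the arm that stops protein synthesis and leads to death: Ddit3, which encodes CHOP, stood at 34.9, 37.7 and 37.5 CPM in the controls and at 31.4, 23.6 and 24.9 CPM in the masses (adjusted p = 0.141).

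A stress response element, to which XBP1 and ATF6 are known to bind beside NF-Y, was looked for in the promoters of these genes because they moved together. The letters searched were CCAAT and, after 9 bases of any kind, CCACG, on both strands, in the 250 bases before each RefSeq start of GRCm38.p6, a build other than the mm9 of the files. The letters occur in 35 of 27025 promoters of that table (0.1295%), in 17 of 11772 promoters of genes tested (0.1444%), in 6 of 20 genes of the secretion list (30%) and in 2 of 15 of the plasma cell list (13.33%). Of the 17 tested genes, 11 rose, 1 fell (Pan2) and 5 did not pass, beside 22.88% higher and 27.02% lower over all tested genes with a promoter in the table. The 11 hold the 6 matches of the secretion list and the 2 of the plasma cell list, known to have risen before the search. That count is therefore no separate test of the letters. A match describes letters and is neither a binding site nor a cause. The promoters of 5 genes with a match are shown 5′ to 3′ on the gene's strand, each ending at the base before the start; capitals mark the match, which opens with CGTGG and ends with ATTGG where it lies on the other strand.
Hspa5, chr2:34771840-34772089, plus strand: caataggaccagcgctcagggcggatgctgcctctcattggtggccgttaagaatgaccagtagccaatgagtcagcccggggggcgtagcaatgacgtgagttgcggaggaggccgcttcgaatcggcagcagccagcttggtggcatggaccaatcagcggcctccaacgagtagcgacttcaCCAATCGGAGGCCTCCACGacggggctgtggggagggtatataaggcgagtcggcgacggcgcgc
Hsp90b1, chr10:86705445-86705694, minus strand: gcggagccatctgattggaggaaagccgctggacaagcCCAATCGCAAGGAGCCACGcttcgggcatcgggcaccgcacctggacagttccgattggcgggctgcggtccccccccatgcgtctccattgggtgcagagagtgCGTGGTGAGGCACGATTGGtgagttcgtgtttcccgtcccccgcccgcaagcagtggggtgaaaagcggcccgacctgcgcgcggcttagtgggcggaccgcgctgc
Calr, chr8:84846932-84847181, minus strand: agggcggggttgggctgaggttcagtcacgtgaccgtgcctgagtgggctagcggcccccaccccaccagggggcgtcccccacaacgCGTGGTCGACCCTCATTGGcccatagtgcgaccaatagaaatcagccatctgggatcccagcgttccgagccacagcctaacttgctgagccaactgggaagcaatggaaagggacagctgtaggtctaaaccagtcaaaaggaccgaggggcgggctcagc
Pdia6, chr12:17266339-17266588, plus strand: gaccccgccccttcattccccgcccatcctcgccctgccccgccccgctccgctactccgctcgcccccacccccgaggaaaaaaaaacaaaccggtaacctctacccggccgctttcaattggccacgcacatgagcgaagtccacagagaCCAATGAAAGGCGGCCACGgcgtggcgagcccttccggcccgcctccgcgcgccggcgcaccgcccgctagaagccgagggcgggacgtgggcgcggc
Derl3, chr10:75893148-75893397, plus strand: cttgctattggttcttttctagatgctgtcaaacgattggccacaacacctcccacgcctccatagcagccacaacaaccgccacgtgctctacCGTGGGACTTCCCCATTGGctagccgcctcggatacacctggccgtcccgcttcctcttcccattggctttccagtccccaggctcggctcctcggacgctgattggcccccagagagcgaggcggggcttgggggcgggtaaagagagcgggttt

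The match lies 65 to 47 bases before the start in Hspa5, 98 to 80 in Pdia6, 162 to 144 in Calr and 156 to 138 in Derl3, the last pair on the other strand. Hsp90b1 holds 2 matches, at 212 to 194 and at 107 to 89 on the other strand. Of the genes shown, Calr, a lectin chaperone, rose by 2.44 and Pdia6, an isomerase of disulphide bonds, by 2.52 on the log2 scale. Canx, Dnajc3 and Creld2 also hold a match and rose by 1.26, 0.97 and 3.91.

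B cell genes rose across the lineage apart from its precursors. Of 21 tested B cell markers 19 rose, none fell, and Ralgps2 and Cd24a did not pass (median 4.46). The sum was 795, 774 and 702 CPM in the controls and 5964, 6842 and 6510 CPM in the masses. Cd22, an inhibitory receptor of B cells, stood at 5.78, 6.01 and 6.54 CPM in the controls and at 373, 543 and 373 CPM in the masses (log2 fold change 6.13 ± 0.56 (SE), adjusted p = 1.19e-05). Ms4a1, which encodes CD20, stood at 5.47, 4.74 and 4.85 CPM in the controls and at 272, 494 and 374 CPM in the masses (log2 fold change 6.24). All masses lay far above the controls for both, and mass 2 was the highest. Cd79a, a signalling chain of the B cell receptor, rose by 5.74. The label of the masses names T cells as well, and Cd3e, a chain of the T cell receptor complex, stood at 90.2, 94.7 and 90.3 CPM in them. Of 10 precursor genes tested, 5 that thymocytes share fell (Rag1, Rag2, Dntt, Lef1 and Sox4), 3 did not pass, and Cd93 and Erg, which endothelium also expresses, rose; the call of Erg was lost without control 2. Vpreb1 stood at 1.6, 1.87 and 2.04 CPM in the controls and at 0.318, 0 and 0.842 CPM in the masses and did not pass.

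Transcription factors of the B lineage rose in 16 of 22 tested cases and fell in 5. Pax5, the identity factor, stood at 0.929, 0.937 and 1.04 CPM in the controls and at 23.1, 26.9 and 28.9 CPM in the masses (log2 fold change 4.75 ± 0.76 (SE), adjusted p = 0.000436). Ebf1 rose by 3.77, Pou2af1, a coactivator of antibody genes, by 6.23, Mef2c by 5.33 and Spib by 3.25. The 5 that fell, Ikzf1, Tcf3, Ets1, Id3 and Bcl6, are shared with developing T cells. Bcl6, the germinal centre repressor, stood at 192, 194 and 219.7 CPM in the controls and at 99.9, 71.7 and 87.8 CPM in the masses (log2 fold change -1.22 ± 0.30 (SE), adjusted p = 0.00641). Every mass was below every control for Bcl6. Signal carriers behind the B cell receptor rose in 16 of 22 cases, fell in 1 (Prkcb) and did not pass in 5 (median 2.45). Among them were Btk (4.57), Lyn (4.24), Syk (3.37), Plcg2 (4.42) and Rasgrp3 (5.15).

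Of 17 tested germinal centre genes, 14 rose, Bcl6 fell, and Fas and Klhl6 did not pass (median 2.52). Nuggc, a nuclear GTPase of these cells, stood at 0.103, 0.22 and 0.26 CPM in the controls and at 42.2, 52 and 67.9 CPM in the masses (log2 fold change 8.05 ± 1.26 (SE), adjusted p = 0.00039). Mef2b, a regulator of germinal centre programs, stood at 3.77, 4.24 and 3.03 CPM in the controls and at 34.7, 59.2 and 89 CPM in the masses (log2 fold change 4.05). S1pr2, which keeps cells in the follicle, stood at 18.8, 19.3 and 14.4 CPM in the controls and at 98.3, 83.2 and 125 CPM in the masses (log2 fold change 2.54). All 3 were highest in mass 3. Gcsam rose by 4.81 and Lmo2 by 4.05.

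Other B cell subsets moved in part. Of 18 genes of follicular and marginal zone B cells tested, 10 rose, 2 fell and 6 did not pass. Cr2, the complement receptor of mature B cells and follicular dendritic cells, rose by 4.25, Tnfrsf13c, the BAFF receptor, by 6.04 and Cxcr5, the receptor for CXCL13, by 4.92. Of 16 genes linked to age-associated or B1 B cells 14 rose, while Anxa2 and Cd5, also a T cell gene, fell; the call of Cd5 was lost without each of the 6 libraries. Fcrl5, an inhibitory receptor of such cells, stood at 1.03, 0.827 and 0.606 CPM in the controls and at 333, 106 and 47.7 CPM in the masses (log2 fold change 7.62). Zbtb32 rose by 5.58, Nt5e by 4.10 and Tbx21, which encodes T-BET, by 3.65. Tbx21, Itgax and Cxcr3 are also expressed by T cells or myeloid cells, and the bulk values do not assign them.

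**Figure D3:**
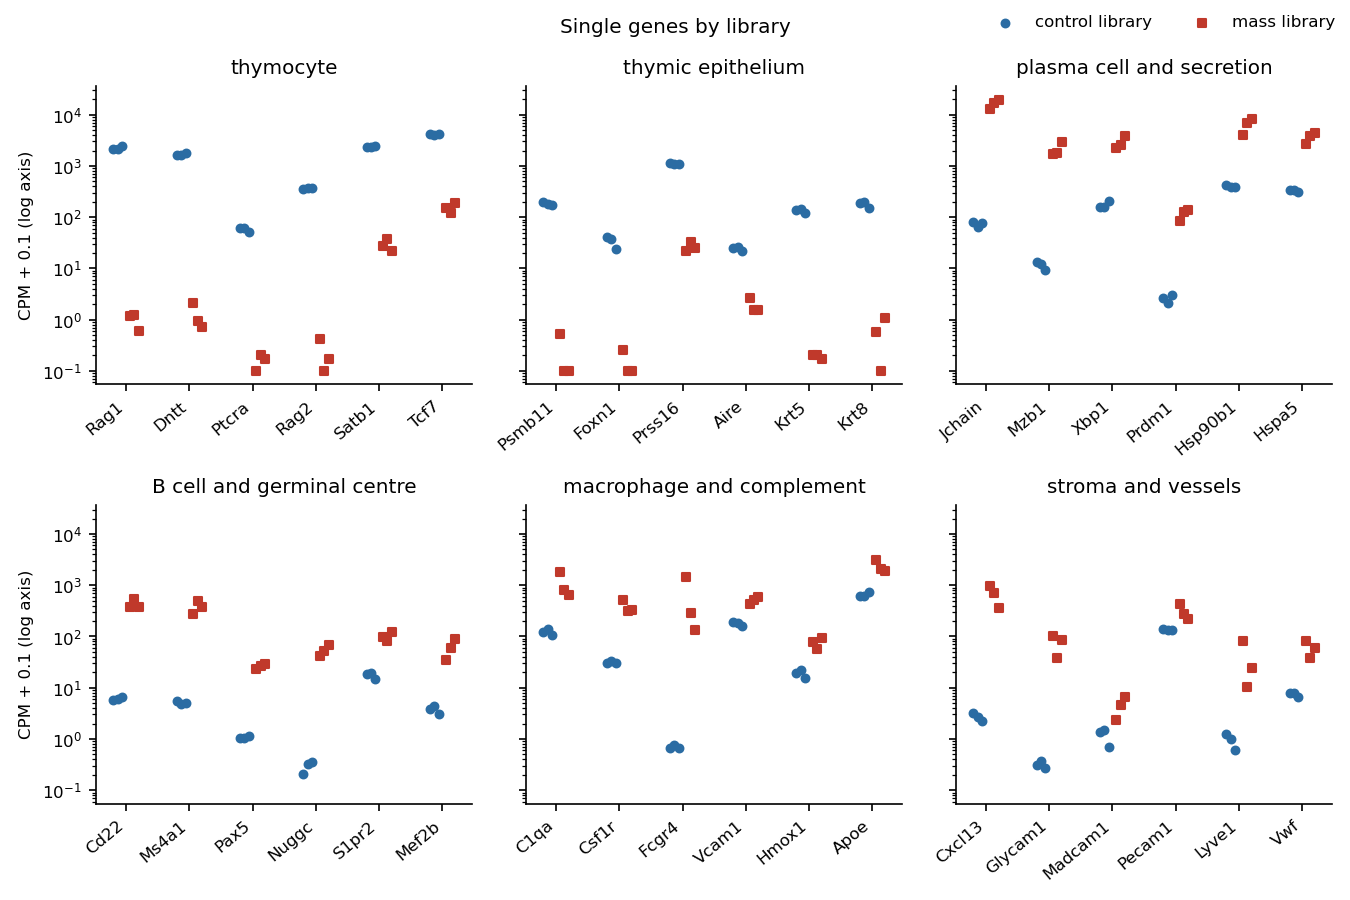
CPM plus 0.1 (log axis) of 36 single genes in each control (blue circles) and each mass (red squares), in 6 panels by cell type. Thymocyte and epithelial genes lie lower in all 3 masses, and the genes of the other panels lie higher in all 3, with a wide spread of Fcgr4 among the masses.

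T cell genes did not vanish with the thymocyte genes. Of 20 genes of the T cell receptor complex and its signalling, 18 fell and Lcp2 and Cd2 did not pass (median -2.67). The sum was 11740, 11900 and 11720 CPM in the controls and 2073, 1692 and 1681 CPM in the masses, a 6.5-fold difference against 23.5-fold for the double-positive list. Cd3e stood at 469, 484 and 436 CPM in the controls and at 90.2, 94.7 and 90.3 CPM in the masses (log2 fold change -2.34 ± 0.54 (SE), adjusted p = 0.00451). Lck, the kinase of the coreceptors, stood at 2299, 2344 and 2443 CPM in the controls and at 167, 135 and 159 CPM in the masses (log2 fold change -3.94). All masses were lower than all controls, and both genes kept a measurable level in each mass.

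Genes of mature T cells were mixed, with 8 of 18 higher, 5 lower and 5 not passed, beside 22.9% higher and 26.3% lower over all genes tested. The number higher was 4 without control 3 and 5 without control 1 or control 2. S1pr1, the exit receptor, rose by 1.80, Gimap4 by 2.76 and Klf2 by 1.32, while Cd27 (-3.95), Txk (-3.94) and Dapl1 (-2.92) fell. Regulatory T cell genes mostly did not pass (10 of 12): Foxp3 stood at 29.2, 30.1 and 32.3 CPM in the controls and at 30, 20.9 and 28.1 CPM in the masses (adjusted p = 0.454). Capg rose and Ikzf2 fell. For Foxp3 the groups overlapped. Klf2 lost its call without control 3.

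Follicular helper genes rose in 8 of 12 cases, with Bcl6 and Sh2d1a lower. Il21, the cytokine by which such cells help B cells, stood at 0.723, 0.496 and 0.693 CPM in the controls and at 26.6, 36.2 and 31.6 CPM in the masses (log2 fold change 5.60 ± 0.80 (SE), adjusted p = 0.000219). Pdcd1, which encodes PD-1, rose by 1.84, Maf by 2.30 and Cd200 by 2.23. Effector and cytotoxic genes rose in 9 of 20 cases, with Gzma lower, a call lost without each library, and 10 not passed (median 2.33). The shares over all genes tested were 22.9% higher and 26.3% lower. Ifng, the cytokine interferon gamma, stood at 0.103, 0.11 and 0.26 CPM in the controls and at 9.76, 10.7 and 8.56 CPM in the masses (log2 fold change 5.84 ± 0.91 (SE), adjusted p = 0.000375). Gzmk stood at 0.0516, 0.0551 and 0.26 CPM in the controls and at 17.8, 16 and 3.79 CPM in the masses (log2 fold change 6.53), and Eomes rose by 4.16. These transcripts were low in both tissues, with each mass above each control. Natural killer receptors such as Ncr1 (at 0.929, 0.386 and 0.303 CPM in the controls and at 4.99, 2.1 and 1.47 CPM in the masses) did not pass. In a fit of the 6 libraries alone, 16 of the 20 genes were higher.

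Inhibitory receptors and their ligands rose in 11 of 17 cases and fell in 3. Tigit stood at 1.08, 1.43 and 1.56 CPM in the controls and at 40.9, 42.6 and 31.6 CPM in the masses (log2 fold change 4.81 ± 0.80 (SE), adjusted p = 0.000567). Ido1, which degrades tryptophan, rose by 4.31, Havcr2, which encodes TIM-3, by 2.55 and Btla by 3.02. Cd96 and Lgals9 fell, as did Cd160, whose call was lost without control 1, control 2, mass 2 or mass 3. Of 25 cytokine and receptor genes 15 rose and none fell, among them Il10 (5.12), whose product damps inflammation, and Il6ra (3.22). That count was 9 without control 3. Il6 stood at 0.361, 0.441 and 0.13 CPM in the controls and at 0.212, 0 and 0 CPM in the masses and did not pass.

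Antigen presentation rose in both classes. Of 15 tested class II genes 12 rose, H2-Oa and Rfxank did not pass, and Rfxap fell (median 2.80). Cd74, the invariant chain, stood at 1162, 1110 and 919 CPM in the controls and at 9372, 6954 and 6348 CPM in the masses (log2 fold change 2.83 ± 0.49 (SE), adjusted p = 0.000726). Ciita, the coactivator that switches the class II genes on, stood at 32.1, 23.1 and 19.8 CPM in the controls and at 209, 251 and 168 CPM in the masses (log2 fold change 3.07). H2-Ab1 stood at 719.9, 689.8 and 552 CPM in the controls and at 3669, 2662 and 2224 CPM in the masses (log2 fold change 2.12). Mass 1 was the highest for Cd74 and H2-Ab1 and mass 2 for Ciita, and no mass overlapped a control. Of 17 class I genes 15 rose and none fell, with Tap2 and Psmb10 not passed (median 1.42). B2m stood at 1028, 1078 and 904 CPM in the controls and at 5659, 4921 and 5044 CPM in the masses (log2 fold change 2.38 ± 0.34 (SE), adjusted p = 0.000219) and Nlrc5, the class I coactivator, rose by 1.83.

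Interferon response genes gave 11 of 29 higher, 1 lower (Ifit1, a call lost without control 1, control 2, mass 2 or mass 3) and 17 not passed. Cxcl9, a chemokine induced by interferon gamma, stood at 11.3, 10.5 and 9.48 CPM in the controls and at 349, 433 and 335 CPM in the masses (log2 fold change 5.16 ± 0.56 (SE), adjusted p = 3.67e-05), and Gbp2 and Gbp3 rose by 2.58 and 3.18. Of 11 tested guanylate-binding protein genes, the family of Gbp2, 6 rose, Gbp8 fell and 4 did not pass. Isg15 and Mx1, genes of the type I interferon response, did not pass. Isg15 stood at 36.6, 36.3 and 22.6 CPM in the controls and at 54.3, 23.9 and 12.8 CPM in the masses and Mx1 at 11.9, 13.4 and 10.3 CPM in the controls and at 31.2, 21.4 and 9.26 CPM in the masses, and the groups overlapped. Letters of the interferon regulatory factor motif, GAAA and, after 2 bases of any kind, GAAA again, on either strand, occur in 11 of 23 promoters of this list (47.83%), against 936 of 27025 in the table (3.463%). Of those 11 genes 4 rose, 1 fell and 6 did not pass, and of all 389 tested genes with these letters 132 rose, 87 fell and 170 did not pass, beside 22.88% higher and 27.02% lower over all tested genes with a promoter in the table.

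Genes of the NF-kappaB pathway rose in 9 of 20 cases and fell in 2, beside 22.9% higher and 26.3% lower over all genes. Bcl3 rose by 2.46, Birc3 by 1.59 and Icam1 by 1.27, while Nfkbia, the feedback inhibitor, stood at 283, 283 and 287 CPM in the controls and at 341, 228 and 219 CPM in the masses and did not pass. The number higher was 4 without control 1 or 3 and 5 without control 2 or mass 1.

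Macrophage genes rose in 18 of 20 tested cases, with Cd163 and Trem2 not passed (median 3.02). The sum was 1345, 1415 and 1399 CPM in the controls and 11980, 7142 and 6669 CPM in the masses. Csf1r, the growth factor receptor of macrophages, stood at 29.9, 33.8 and 30.2 CPM in the controls and at 510.4, 318 and 331 CPM in the masses (log2 fold change 3.62 ± 0.36 (SE), adjusted p = 2.05e-05). C1qa, a chain of complement C1q, stood at 124, 142 and 108 CPM in the controls and at 1794, 812 and 643 CPM in the masses (log2 fold change 3.12). Cx3cr1 stood at 4.9, 4.08 and 5.07 CPM in the controls and at 292, 172 and 79.6 CPM in the masses (log2 fold change 5.27). Mass 1 was the highest for all 3, and no mass overlapped the controls. Fcgr4, an activating receptor for IgG2 antibodies, stood at 0.568, 0.661 and 0.563 CPM in the controls and at 1446, 290.5 and 133 CPM in the masses (log2 fold change 10.01 ± 1.69 (SE), adjusted p = 0.000636), with a wide spread among the masses.

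Red pulp genes, typical of the macrophages of the spleen, rose in 11 of 12 cases. Vcam1, which holds cells in place, stood at 194, 182 and 162 CPM in the controls and at 433, 510.3 and 600.1 CPM in the masses (log2 fold change 1.52 ± 0.26 (SE), adjusted p = 0.000778). Hmox1, which degrades haem, stood at 18.9, 22 and 15.4 CPM in the controls and at 78.8, 55.7 and 94.6 CPM in the masses (log2 fold change 2.02). Spic, the factor of red pulp macrophages, stood at 9.08, 9.86 and 7.45 CPM in the controls and at 51.1, 37.8 and 31.2 CPM in the masses (log2 fold change 2.19). Marco and Cd5l, also of splenic macrophages, rose by 6.48 and 4.72. Slc40a1, the iron exporter, was the gene that fell (0.58 lower on the log2 scale), and its call was lost without control 1, control 2, mass 2 or mass 3. Haemoglobin and other erythroid genes did not pass (0 of 13, with 49.2% of all genes called). Hbb-b1 stood at 137, 121 and 99.3 CPM in the controls and at 1059, 172 and 119 CPM in the masses, and mass 3 lay within the range of the controls while mass 1 was far above it. Megakaryocyte genes gave 1 higher, 1 lower and 6 not passed of 8 tested, where 49.2% of all genes were called. The gene that rose was Vwf, which endothelium also makes.

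Complement and clearance genes rose in 16 of 17 cases, with Gas6 not passed (median 3.31). C4b stood at 2.01, 5.07 and 6.02 CPM in the controls and at 425, 274 and 299 CPM in the masses (log2 fold change 6.25 ± 0.40 (SE), adjusted p = 1.64e-06). C3, the central component, stood at 116, 124 and 133 CPM in the controls and at 2391, 1717 and 1735 CPM in the masses (log2 fold change 3.97), and Cfb and Serping1 rose by 5.18 and 4.34. Lysosome and phagocytosis genes rose in 19 of 21 cases, among them Ctss (4.15), Ctsh (3.96), Lgmn (3.12) and Grn (2.65). Ctsl, the cathepsin of cortical epithelium, fell by 2.53. Toll-like receptors, a family taken up after its values were seen, rose in 11 of 12 cases (median 2.98). Tlr9, which reads unmethylated DNA in B cells and dendritic cells, went from a mean of 1.59 to 58.3 CPM and Tlr7, its RNA-sensing relative, from 9.21 to 70.9 CPM. Fc receptors and Fc receptor-like genes rose in 11 of 12 cases in the same kind of count (median 3.62).

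Of 16 tested genes of conventional dendritic cells, 10 rose, 3 fell and 3 did not pass. The number lower was 2 without mass 2 and 1 without each of the other libraries in turn. Sirpa rose by 3.19, Itgax, which encodes CD11c, by 3.73, Xcr1 by 2.13 and Flt3 by 1.65. The genes that fell were Ccl17, Ccl22 and Ccr7, known from mature dendritic cells, and Ccr7 is also on the lists of mature T cells and of follicular and marginal zone B cells. Ccl17 stood at 3.51, 2.31 and 1.47 CPM in the controls and at 0, 0.526 and 0 CPM in the masses (log2 fold change -4.05 ± 1.49 (SE), adjusted p = 0.0419). Each control was above each mass, but the calls of Ccl17 and Ccl22 were lost when single libraries were left out, controls among them. Ccr7 kept its call without each library. Of 11 plasmacytoid genes tested, 3 rose, 1 fell and 7 did not pass. Among the 7 was Siglech (at 4.44, 4.9 and 4.94 CPM in the controls and at 9.39, 6.41 and 7.16 CPM in the masses). For both dendritic lists the shares over all genes tested were 22.9% higher and 26.3% lower.

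Of 18 tested granulocyte genes, 7 fell, 10 did not pass and Csf3r rose (median -1.77). S100a8 stood at 60.6, 40.4 and 35.4 CPM in the controls and at 9.71, 3.79 and 17.9 CPM in the masses (log2 fold change -2.11 ± 0.59 (SE), adjusted p = 0.0125). Mmp9 stood at 32.7, 32 and 22.4 CPM in the controls and at 4.14, 0.421 and 5.12 CPM in the masses (log2 fold change -3.13). The masses were below the controls for both genes, with mass 2 the lowest for each. The number of lower genes was 4 without control 1 or mass 1. Of 9 tested genes of mast cells, basophils and eosinophils, Prg2 and Gata2 rose, Cpa3 (-3.90) and Hdc (-2.51) fell and 5 did not pass. Over all genes tested, 22.9% were higher and 26.3% lower. The call of Gata2 was lost without control 1, control 2 or mass 1. Prg2, a granule protein of eosinophils that plasma cells are also known to express, stood at 3.87, 3.42 and 1.78 CPM in the controls and at 42, 176 and 133 CPM in the masses (log2 fold change 5.28 ± 0.95 (SE), adjusted p = 0.001).

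Vessels gained in every gene tested. All 16 vascular endothelial genes rose (median 2.15), and the sum was 259.6, 257 and 298 CPM in the controls and 1341, 879.7 and 845 CPM in the masses. Cdh5, the cadherin of endothelial junctions, stood at 10.4, 11 and 22.6 CPM in the controls and at 76.6, 83.1 and 55.2 CPM in the masses (log2 fold change 2.28 ± 0.33 (SE), adjusted p = 0.000241). Plvap, of fenestrated vessels, stood at 20.1, 21.3 and 19.6 CPM in the controls and at 212, 162 and 179 CPM in the masses (log2 fold change 3.18). No mass overlapped a control. All 7 lymphatic genes tested rose (median 5.52), led by Mmrn1, Reln, Tbx1 and Lyve1. Lyve1 stood at 1.14, 0.882 and 0.52 CPM in the controls and at 81.8, 9.99 and 24.5 CPM in the masses (log2 fold change 5.52 ± 1.04 (SE), adjusted p = 0.00134), with mass 1 the highest. Sinus cells of the spleen and some macrophages are known to express several of these genes too. The calls of Sox17 and Tek were each lost without control 1 or 2, that of Sox17 also without mass 2 or 3, and that of Prox1 without control 3 or mass 1. Tbx1 lost its call without each control and without mass 1.

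Entry vessels of lymph nodes, the high endothelial venules, were read from 10 genes, of which 8 rose and Madcam1 and Ubd did not pass (median 2.37). Glycam1, a ligand that carries L-selectin's sugars, stood at 0.206, 0.276 and 0.173 CPM in the controls and at 101, 37.2 and 84.6 CPM in the masses (log2 fold change 8.38 ± 1.17 (SE), adjusted p = 0.000193). Chst4, the sulphotransferase that makes those sugars, stood at 0.0516, 0.992 and 0.476 CPM in the controls and at 8.12, 4.63 and 5.61 CPM in the masses (log2 fold change 3.59). Fut7, their fucosyltransferase, rose by 2.85 and Gcnt1 by 4.09. Glycam1 was near 0 in every control. Madcam1, the vascular address of gut lymphoid tissue, stood at 1.24, 1.38 and 0.606 CPM in the controls and at 2.28, 4.52 and 6.59 CPM in the masses (adjusted p = 0.0701). The calls of Chst4 and Fut7 were lost when 1 of several libraries was left out.

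Lymphoid stroma genes rose in 9 of 14 cases and fell in none (median 2.12). Cxcl13, the chemokine that gathers B cells into follicles, stood at 3.15, 2.59 and 2.12 CPM in the controls and at 982, 701 and 360.3 CPM in the masses (log2 fold change 8.02 ± 0.68 (SE), adjusted p = 7.44e-06). Grem1 rose by 5.71 and Il33, an alarm cytokine of reticular cells, by 4.20. Lta, Ltb and Ltbr, the lymphotoxin ligands and receptor that organise such tissue, did not pass: Ltb stood at 191, 176 and 165 CPM in the controls and at 268, 206 and 224 CPM in the masses. Every mass was far above every control for Cxcl13, whereas the levels of Ltb lay close together.

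Matrix and fibroblast genes moved in part. Of 21 genes of the extracellular matrix and TGF-beta, 14 rose and none fell. Of 18 fibroblast and pericyte genes 7 rose, Thy1 fell and 10 did not pass, beside 22.9% higher and 26.3% lower over all genes. Tgfbi stood at 28.6, 28.6 and 21.3 CPM in the controls and at 696, 336 and 254 CPM in the masses (log2 fold change 4.04 ± 0.56 (SE), adjusted p = 0.000193). Dcn, a small proteoglycan, rose by 2.41 and Pdgfra by 3.38. Col3a1 stood at 73.9, 103 and 88.2 CPM in the controls and at 173, 139 and 83.8 CPM in the masses and did not pass (adjusted p = 0.494). The matrix count was 8 without control 1 and 9 without control 2. Thy1 is also a T cell gene, at 2906, 2912 and 2998 CPM in the controls. Adipocyte genes did not pass in 13 of 14 cases. Adipoq stood at 5.11, 11.8 and 120.0 CPM in the controls and at 31.6, 17.4 and 12.9 CPM in the masses, with control 3 above all other libraries, and Ucp1, which fell, lost its call without that library.

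**Figure D4:**
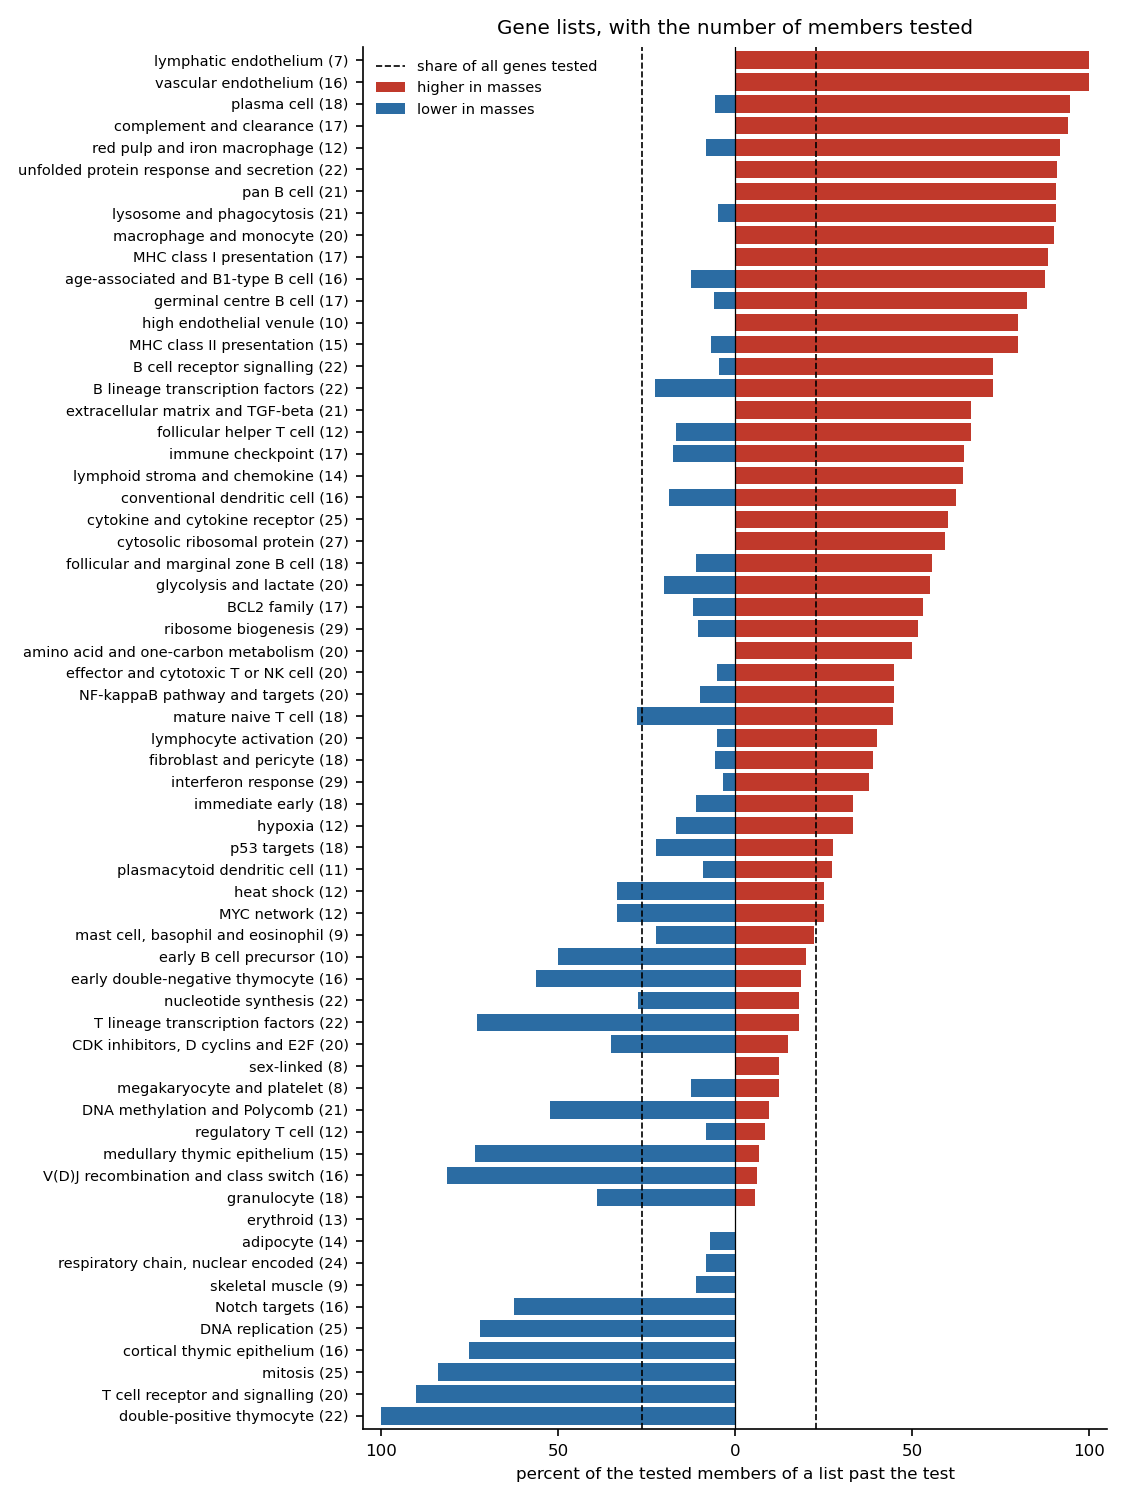
Percent of the tested members of each gene list with at least 7 tested members that were called higher (red, to the right) or lower (blue, to the left) in the masses, with the number tested in brackets; dashed lines mark the shares over all genes tested, 22.9% and 26.3%. Lymphatic and vascular endothelium reach 100% higher and double-positive thymocyte 100% lower, and the erythroid list has no call.

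The Myc transcript did not pass the test. Myc stood at 85.5, 79.9 and 82.9 CPM in the controls and at 84.2, 91.6 and 100 CPM in the masses (log2 fold change 0.15 ± 0.13 (SE), adjusted p = 0.347) and ectopic and endogenous transcripts cannot be told apart in it. Mycn, its relative in immature thymocytes, fell by 5.11 on the log2 scale and Mycl, of dendritic cells, rose by 1.21, a call lost without each library but mass 3. Of 12 genes of the MYC network 3 rose, 4 fell and 5 did not pass, beside 22.9% higher and 26.3% lower over all genes tested. None of the 12 rose with scaling by library size alone, without control 1 or without control 2.

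Ribosome biogenesis genes, which MYC is known to drive, rose in 15 of 29 cases, fell in 3 and did not pass in 11 (median 0.38). The sum was 3279, 3202 and 2984 CPM in the controls and 3007, 3981 and 3997 CPM in the masses. Mass 1 thus lay within the range of the controls, and masses 2 and 3 lay above it. The changes were small. Ddx21, a helicase of rRNA processing, stood at 149, 139 and 136 CPM in the controls and at 244, 321 and 319 CPM in the masses (log2 fold change 1.06 ± 0.17 (SE), adjusted p = 0.000442). Polr1b, a subunit of RNA polymerase I, rose by 0.72 and Gnl3, a nucleolar GTPase, by 0.83. Bysl fell by 2.31. Of 27 tested genes of cytosolic ribosomal proteins 16 rose and none fell, among them Rps3 (0.77) and Rpl4 (0.65). Several genes of this family have processed copies elsewhere in the genome and held few reads, so their values are uncertain.

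Proliferation genes fell. Of 25 tested genes of mitosis 21 fell and none rose (median -0.87), and of 25 DNA replication genes 18 fell and none rose (median -0.60). Cdk1, the mitotic kinase, stood at 243, 229 and 201 CPM in the controls and at 96.3, 93.8 and 109 CPM in the masses (log2 fold change -1.17 ± 0.21 (SE), adjusted p = 0.000909). Cenpf stood at 153, 149 and 158 CPM in the controls and at 28.9, 50.3 and 49.9 CPM in the masses (log2 fold change -1.83). Mcm7, a subunit of the replicative helicase, stood at 213, 222 and 207 CPM in the controls and at 87.3, 95.7 and 102 CPM in the masses (log2 fold change -1.17 ± 0.11 (SE), adjusted p = 1.55e-05). Mass 1 was the lowest for Cenpf and Mcm7 and mass 2 for Cdk1, and no mass reached a control. Mki67 stood at 741, 704 and 762 CPM in the controls and at 267, 567 and 556 CPM in the masses and did not pass. The replication count was sensitive to single libraries: 9 genes fell without control 1, 10 without control 2, 9 without mass 1 and 10 without mass 2. Among cell cycle regulators, Ccnd3 fell by 3.33, while Ccnd2 and Ccnd1 rose by 2.33 and 2.83. Ccnd3, the D cyclin of thymocytes, stood at 1546, 1583 and 1223 CPM in the controls and at 151, 112 and 169 CPM in the masses. Ccnd2 stood at 119.8, 111 and 71.6 CPM in the controls and at 462, 495 and 556 CPM in the masses. The groups did not overlap for either gene. Cdkn2a, which encodes p16 and ARF, rose by 3.71, from 1.87 to 24.4 CPM.

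The BCL2 family, which holds survival and death genes, gave 9 higher, 2 lower (Bcl2l1 and Bmf) and 6 not passed of 17 tested. Bcl2l1, which encodes BCL-XL and keeps double-positive thymocytes alive, stood at 298, 310.2 and 293 CPM in the controls and at 55.6, 59.5 and 79.2 CPM in the masses (log2 fold change -2.21 ± 0.57 (SE), adjusted p = 0.00797). Mcl1, on which plasma cells depend, stood at 641, 654 and 577 CPM in the controls and at 1235, 1113 and 1168 CPM in the masses (log2 fold change 0.91 ± 0.13 (SE), adjusted p = 0.000195). The groups separated in opposite directions for these 2 genes. Bcl2a1b rose by 2.88, but reads among its near-identical copies are uncertain. Among the death genes, Bmf fell by 1.87 and Pmaip1, also called NOXA, rose by 2.78. P53 targets gave 5 higher, 4 lower and 9 not passed of 18 tested, near the shares over all genes (22.9% higher and 26.3% lower), with 2 lower without mass 2, and Cdkn1a stood at 27.6, 28 and 35.9 CPM in the controls and at 47, 37.2 and 36.1 CPM in the masses without a call.

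Of 20 glycolysis genes 11 rose, 4 fell and 5 did not pass. Hk2, the first enzyme, stood at 10.1, 10.2 and 33 CPM in the controls and at 92.8, 79.5 and 57.8 CPM in the masses (log2 fold change 2.11 ± 0.44 (SE), adjusted p = 0.00241), and Ldhb, a lactate dehydrogenase of oxidative cells, stood at 296, 314 and 304 CPM in the controls and at 10.3, 8.73 and 9.54 CPM in the masses (log2 fold change -5.00 ± 0.79 (SE), adjusted p = 0.000424). Hk2 and Ldhb moved apart, while Ldha stood at 419, 409 and 453 CPM in the controls and at 579, 459 and 496 CPM in the masses and did not pass. Nuclear genes of the respiratory chain did not pass in 22 of 24 cases, with 2 lower (49.2% of all genes were called). Amino acid genes rose in 10 of 20 cases and fell in none. Asns, which makes asparagine, stood at 3.66, 3.03 and 7.62 CPM in the controls and at 50.7, 39.3 and 79.9 CPM in the masses (log2 fold change 3.56 ± 0.63 (SE), adjusted p = 0.000866). Pycr1, the last enzyme of proline synthesis, rose by 5.91, and Slc7a5 and Slc3a2, which form an importer of large amino acids, by 1.56 and 1.54. Of 22 nucleotide synthesis genes 4 rose, 6 fell and 12 did not pass, near the 22.9% higher and 26.3% lower over all genes, and 2 rose without control 2 or control 3.

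Immediate early genes gave 6 higher, 2 lower and 10 not passed of 18, beside 22.9% higher and 26.3% lower over all genes. Jun stood at 22.9, 25.1 and 16.4 CPM in the controls and at 108, 94 and 80.3 CPM in the masses (log2 fold change 2.13 ± 0.35 (SE), adjusted p = 0.000503), while Egr1, a gene of receptor signalling in thymocytes, fell by 1.57. Heat shock genes of the cytosol gave 3 higher, 4 lower and 5 not passed of 12, near the shares over all genes (22.9% and 26.3%). The number higher was 1 without control 1, control 2 or control 3 and 5 without mass 1. Hspa1a stood at 5.26, 6.45 and 5.02 CPM in the controls and at 1.06, 1.05 and 0.561 CPM in the masses (log2 fold change -2.64 ± 0.57 (SE), adjusted p = 0.00282). Of 21 genes of DNA methylation and Polycomb, 11 fell, 2 rose and 8 did not pass. Tet1, which oxidises methylcytosine, stood at 37.9, 36.2 and 30.5 CPM in the controls and at 1.8, 1.89 and 0.491 CPM in the masses (log2 fold change -4.64 ± 0.55 (SE), adjusted p = 6.86e-05), and Uhrf1 (-2.06) and Ezh2 (-1.24) fell. Arid3a, a factor of B cell transcription, rose by 3.48.

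Gene families picked from the table after their values were seen gave further groups of small falls. Splicing factors of the serine/arginine-rich family fell in 8 of 11 cases and rose in 1 (median -0.60), Mediator subunits fell in 16 of 30 (median -0.43), centrosomal proteins in 20 of 36 (median -0.71) and heterogeneous nuclear ribonucleoproteins in 10 of 20 (median -0.36). Srsf1 stood at 1066, 1042 and 998 CPM in the controls and at 539, 731 and 744 CPM in the masses (log2 fold change -0.62) and Med12 at 152, 152 and 158 CPM in the controls and at 74, 87.7 and 78.9 CPM in the masses (log2 fold change -0.94). Each mass was below each control for these 2 genes. Over all genes tested, 26.3% were lower. With other scalings 7 to 11 of the 20 heterogeneous nuclear ribonucleoproteins were lower, and under some of them the Mediator subunits also gave 2 genes higher. On the side of secretion all 4 subunits of the signal sequence receptor and 7 of 9 vesicle cargo receptors rose (medians 1.73 and 0.89).

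The 3 masses differed from each other in some list sums, and in the erythroid list mass 1 lay above the controls while masses 2 and 3 did not. In the ribosome biogenesis list masses 2 and 3 lay above the controls while mass 1 did not. The sum of the plasma cell list was 2-fold higher in mass 3 than in mass 1, and that of the secretion list 1.6-fold higher. Single genes weighed heavily in the plasma cell sum. Slpi held 0.525% of reads in mass 1 and 1.853% in mass 3, and Jchain 1.199% and 1.889%. Mass 1 held 1.8-fold more macrophage transcripts than mass 3, 1.87-fold more of the complement list and 5.87-fold more of the erythroid list. B cell and double-positive thymocyte sums varied by no more than 1.15-fold and 1.1-fold. In mass 1, 30 genes of at least 20 CPM were more than 4-fold above both other masses, among them Fcgr4, Fcer1g, Cd300e and the haemoglobins. Mass 2 had 5 such genes, 4 of them Y-linked, and mass 3 had Fut1 alone. With 3 libraries these differences have no test.

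**Figure D5:**
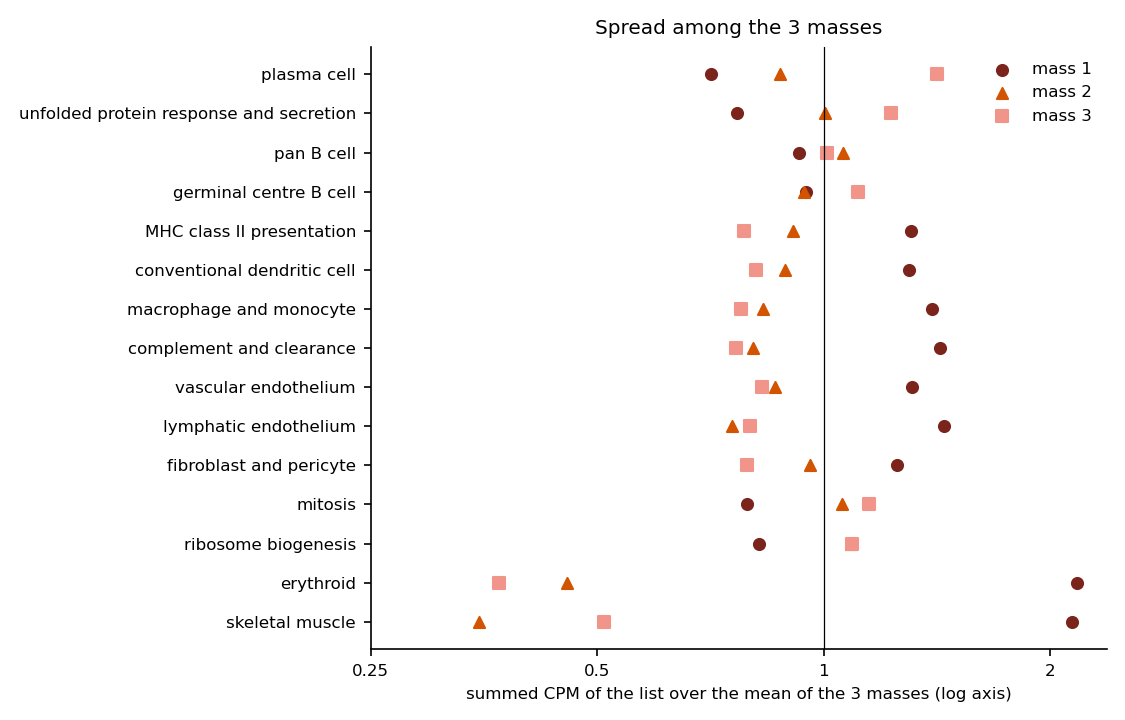
Summed CPM of 15 gene lists in each mass, divided by the mean of the 3 masses (log axis, where 1 is the mean). Mass 3 is highest for plasma cell and secretion lists, mass 1 for myeloid, vascular, erythroid and muscle lists.

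Against S62A lymphomas, which carry the same mutant, the masses also differed over a large share of genes; both comparisons use the same 3 masses. With edgeR, 4002 genes were higher (25.6% of 15606) and 4470 lower (28.6%) in the masses, 54.3% in all. The secretory and B cell gain was seen against lymphomas too, with 17 of 18 plasma cell genes, 18 of 21 B cell genes and 17 of 22 secretion genes higher. Jchain stood at 31.9, 275 and 448 CPM in the lymphomas and Xbp1 at 92, 116 and 128 CPM, below every mass. Pou2af1, in contrast, stood at 1010, 202 and 1532 CPM in the lymphomas and did not pass the test (adjusted p = 0.697). All 17 class I genes and 28 of 29 interferon response genes were higher in the masses than in lymphomas, whereas 15 and 11 were higher than in controls. Isg15 stood at 2.54, 4.24 and 1.53 CPM in the lymphomas, beside the levels in controls and masses given above.

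Growth genes were lower in the masses than in lymphomas. Of 29 ribosome biogenesis genes 27 were lower than in S62A lymphomas and none higher, although 15 were higher than in controls. Ddx21 stood at 566, 452 and 424 CPM in the lymphomas (-0.71 for mass over lymphoma, adjusted p = 0.00426). Myc stood at 158, 203 and 157 CPM there (-0.91, adjusted p = 0.000172). Of 25 mitosis genes 20 and of 25 replication genes 21 were lower than in lymphomas. Thymic epithelial genes were low in both: Psmb11 stood at 0.445, 0.359 and 0.133 CPM in the lymphomas and did not pass the test against the masses, and Foxn1 at 0.0636, 0 and 1.07 CPM. Double-positive thymocyte genes set them apart, with 18 of 22 lower in the masses. Tcf7 stood at 5597, 5393 and 4641 CPM in lymphomas and Rag1 at 965, 417 and 1243 CPM. Other T cell lists differed from this. Of 18 mature T cell genes 13 were higher in the masses than in lymphomas and 3 lower. Of 12 regulatory T cell genes 8 were higher and 0 lower, and of 20 effector genes 11 and 0. Of 20 genes of the T cell receptor and its signalling, 8 were lower and 1 higher.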

How the data were processed

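The series measured poly(A) RNA of mouse thymic tissue in 12 libraries, of which 3 masses, 3 controls and, for a second comparison, 3 S62A lymphomas are described. Libraries were made with a directional kit and sequenced on a HiSeq, per the labels' protocols. The submitters' processing notes name bcl2fastq 2.20.0.422, Bowtie 1.0.0, the mouse genome mm9 and DESeq2. The deposited read counts per transcript are whole numbers that were not normalized, per the file headers and values. The deposited FPKM values, which the authors scaled to transcript length and depth, stand beside them. The counting tool, its strand setting and the treatment of reads with several matches do not appear in the sources used here, so overlapping genes and near-identical copies are uncertain.

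For each symbol the transcript row with the most reads over the 12 libraries was kept, 24478 genes from 36141 rows. Genes were filtered with filterByExpr (minimum count 10), scaled by TMM and fitted over all 12 libraries in 4 groups with edgeR 4.0.16 in R 4.3.3. All adjusted p-values in the report come from its quasi-likelihood test with Benjamini-Hochberg adjustment over 15606 genes, and a call is an adjusted p under 0.05. SE is the log2 fold change divided by the square root of the F statistic. CPM are TMM-scaled. The script was tested on simulated data. Named genes were the 15 largest rises and falls without overlap and with at least 20 CPM, the 10 highest by FPKM in each group, Myc, and list members, led by those with the smallest adjusted p; members were also named for their role. Gene lists and members were chosen with earlier results of these data known. Lists are given by counts and medians without a test. Alternatives used DESeq2 1.42.0, limma 3.58.1 on log2 FPKM with pseudocounts of 0.1 and 1, other scalings and filters, other transcript rows, fewer libraries, and each replicate left out in turn. Leaving out control 3 in a fit of 5 libraries, and leaving out the 20 genes with the most reads, were chosen after seeing the data. Some genes of the lists are counted but not reported here by name.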

Additional observations from a re-analysis of the deposited data

How the results depend on the processing

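Numbers of genes called kept within 1.5 times under every alternative run. Against control, leaving out 1 library gave 2692 to 3361 genes higher and 3284 to 3556 lower, and the other alternatives gave 3160 (library size only) to 4560 (only the 6 libraries) higher and 3537 to 5033 lower. Against S62A lymphoma they ranged from 3470 to 4663 higher and from 3200 to 4530 lower over all alternatives. Scaling by library size alone moved the median log2 fold change by -0.11, and genes higher then made up 40.1% of calls, against 46.58%. Of 16514 values of 979 genes, 659 lost the call and 339 gained it. In 15509 the call or lack of a call stayed, and any change of sign there came without a call in either fit. The other 7 values changed sign, with a call in the alternative and none in the main fit. They belonged to Bcl2l11 (2.82 with the first listed transcript), Cidec, Fabp4, Lipe and Lpl. Without control 3 in a fit of 5 libraries, Cidec gave 1.99, Fabp4 1.30, Lipe 1.12 and Lpl 1.19. Leaving out 1 library gave -1.13 to 1.28 for Fabp4 and -0.57 to 1.10 for Lipe, with the positive values without control 3, the library rich in fat genes. Of 2176 list counts, 217 moved past 1.5 times, and in 17 of these the alternative gave more than 5 genes. Counts that fell to 5 or fewer are not among the 17, such as mature T cell genes higher (8 in the main fit, 4 without control 3). Effector genes rose in 16 cases and NF-kappaB genes in 14 with only the 6 libraries, and 11 replication genes fell with no filter; the cause was not tested. No paired analysis was possible because the groups share no replicate numbers in the labels. Depth limits low genes most in mass 2, which had the fewest reads.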
